A study of Homo sapiens with 8 samples.

Results

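The comparison described here set oligodendrocyte progenitor cells (OPCs) kept on vitronectin (VN) against the same cells kept on Matrigel. Its members were the libraries labelled VN, replicates 1, 2 and 3, and the libraries labelled Matrigel control, replicates 2 and 3, which makes 5 of the 8 libraries of the series. The other 3 came from VNP2, a designed peptide that carries the RGD motif of vitronectin. All libraries came from cells of the established human embryonic stem cell line H9, which had been differentiated to OPCs. The OPCs were then kept in OPC medium on the coated plates for 2 days without forced expression of SOX10. The coating is the difference between the groups that the labels name. The study lists retinoic acid, an agonist of the hedgehog transducer SMO, insulin and basic fibroblast growth factor among the components of OPC medium. Stranded paired-end libraries were made from polyadenylated RNA, and transcripts were quantified with Salmon. A single cell line was used, the labels do not say whether the replicates came from separate cultures, and Matrigel had only 2 libraries, so the p-values measure the spread between these libraries, which may be technical.

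Vitronectin is an adhesive glycoprotein of plasma and of the extracellular matrix. Its RGD motif is held by integrins that contain the alpha v subunit. Matrigel is a basement membrane extract from a mouse tumour, rich in laminin, collagen IV, nidogen and perlecan, and cells hold laminin mainly through other integrins. Bound integrins join the actin cytoskeleton at focal adhesions. Tension on these contacts is read out in many cells by YAP and TAZ, which act with TEAD factors on DNA, and by SRF, whose coactivators are released when actin polymerizes. OPCs arise from ventral progenitors of the neural tube that express OLIG2 and NKX2-2, the same domains that make several kinds of neurons.

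The libraries held between 37997896 and 39429453 estimated counts. Levels are given as TPM (transcript abundance corrected for transcript length and scaled to a fixed total) where genes are compared with each other, and as normalized counts where libraries are compared. Of the OPC markers, OLIG1 had a mean of 48.2 TPM on Matrigel and 62.6 on VN, OLIG2 41.3 and 54.0, NKX2-2 13.7 and 15.4, and PDGFRA 3.76 and 4.53. The later lineage markers SOX10 and GPR17 were nearly absent, with 9 and 4 estimated counts summed over the 5 libraries. Of the neural progenitor markers, SOX2 stood at 349 and 411 TPM and SOX1 at 52 and 67.1, while PAX6 was nearly absent, with 25 counts over the 5 libraries, and neuronal DCX reached 46.0 and 69.9. Neuronal TUBB3 stood at 548 and 551 TPM. The label OPC therefore covers cultures with OLIG-positive progenitor and neuronal transcripts and almost no SOX10. VN replicate 1 stood apart: its counts gave a median chi-square per gene of 2.26 with VN replicate 2 and 2.62 with VN replicate 3, whereas those libraries gave 0.784 with each other and the Matrigel pair gave 0.708. Relative to the other VN libraries, its genes shifted with GC content, from a median log2 difference of -0.083 in the fifth of genes with the lowest GC content to 0.097 in the fifth with the highest. The counts over all genes and over each gene list are therefore given with and without this library.

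Of 18201 genes tested, 1031 were higher on VN (5.66%) and 1747 were lower (9.60%) in edgeR's quasi-likelihood test at a Benjamini-Hochberg adjusted p under 0.05. The counts of the gene lists below are to be read beside these shares. Lists share some members, so their counts are not independent. More of the large changes were falls: 201 genes rose and 463 fell by at least 1.5-fold, 69 and 230 by at least 2-fold, and 14 and 69 by at least 4-fold. Most calls were small, with a median fold of 1.25 in both directions. Without VN replicate 1 the counts were 1554 higher and 2345 lower, and the changes of at least 1.5-fold numbered 769 in place of 664. Without Matrigel replicate 2 only 400 genes were called higher and 826 lower, without Matrigel replicate 3 the numbers were 352 and 836, and without VN replicate 3 the number called higher was 653. In these bulk libraries, fewer cells of a type and less RNA per cell cannot be told apart.

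**Figure D1:**
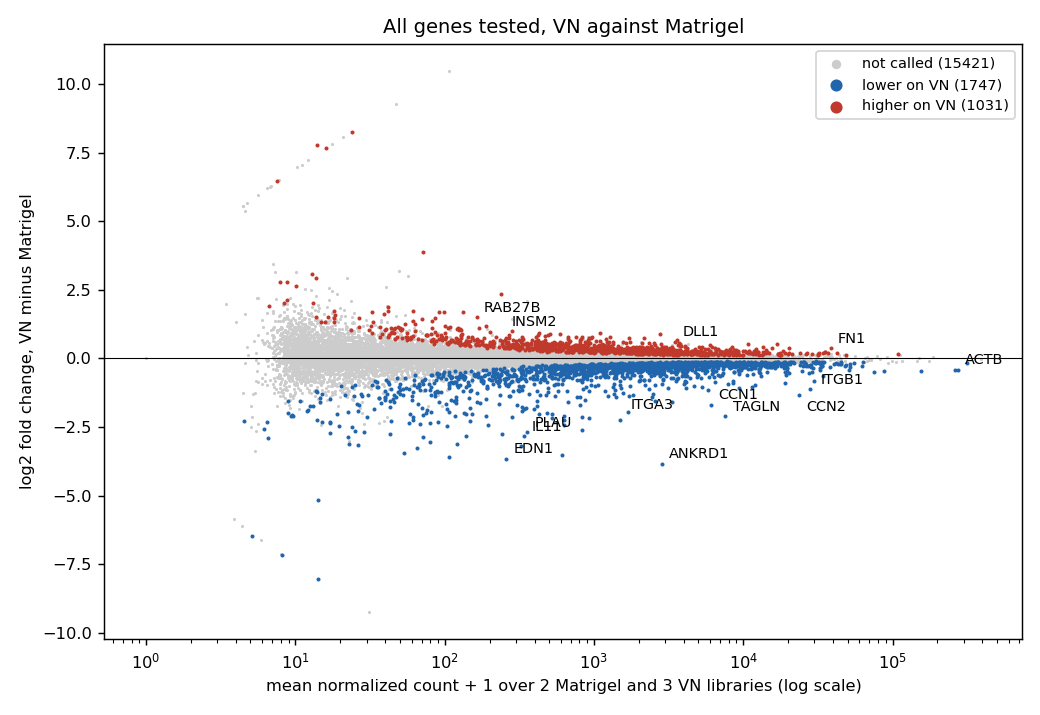
Each point is a gene, with the mean normalized count plus 1 over the 5 libraries on the log-scaled x axis and the log2 fold change of VN minus Matrigel on the y axis. Blue points (1747) were called lower and red points (1031) higher; the falls reach further than the rises among genes of high count, and points beyond 5 in either direction are genes at or near 0 in at least 1 library. Of the genes not called (grey), 2 are not drawn.

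The genes with the largest falls encoded stretch- and injury-responsive, secreted and cell surface proteins. ANKRD1 (chr10:90912096-90921276 in GRCh38), a nuclear and sarcomeric ankyrin repeat protein and a standard YAP target, had normalized counts of 6027 and 6817 on Matrigel against 448, 413 and 484 on VN. Every VN library lay far below both Matrigel libraries, a 14.3-fold difference (log2 -3.84, SE 0.11, edgeR adjusted p = 4.22e-08). EDN1, which encodes the vasoconstrictor peptide endothelin, had 540.5 and 606 on Matrigel against 39.1, 46.8 and 50.6 on VN (log2 -3.65, SE 0.18, edgeR adjusted p = 6.26e-07). ADGRG6, an adhesion receptor known for its role in myelination by Schwann cells, had 1277 and 1412 on Matrigel against 133, 111 and 109 on VN (log2 -3.52, SE 0.12, edgeR adjusted p = 6.79e-08). PLAU, the urokinase that activates plasminogen, had 707 and 739 on Matrigel against 114, 112 and 109.7 on VN, with a log2 fold change of -2.69 (SE 0.15). The cytokine IL11 had 651 and 752 on Matrigel against 91.5, 74.5 and 133 on VN, with a log2 fold change of -2.83 (SE 0.22). None of these groups overlapped, but lack of overlap was a condition for the 15 largest falls, so it adds no evidence. Others of the 15 largest falls were NPPB, a natriuretic peptide (-3.13), LAYN, a hyaluronan receptor (-2.82), ANXA3, an annexin (-2.75), CAVIN1, a coat protein of caveolae (-2.62), the peptide hormone SPX (-2.46), TNFRSF12A, the receptor of TWEAK (-2.42), CRHBP, which binds corticotropin-releasing hormone (-2.42), the ubiquitin-like UBD (-2.27) and the early response gene IER3 (-2.26). All of these genes stayed called under every alternative that tested them, including without VN replicate 1.

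YAP and SRF targets and the contractile apparatus fell together. Of 22 genes listed as induced by YAP or SRF, 17 were called lower and 0 higher, with a median log2 fold change of -0.59 against 0.0044 over all genes tested. Of 32 genes of focal adhesions and actomyosin, 26 were lower and 0 higher, with a median of -0.50. These counts were also 17 and 26 without VN replicate 1. The matricellular proteins CCN1 and CCN2 are among the most used reporters of YAP activity. CCN1 had 10070.4 and 10655 on Matrigel against 3376, 3086 and 3171 on VN (log2 -1.69, SE 0.047, edgeR adjusted p = 4.22e-08), and CCN2 had 36635 and 37439 on Matrigel against 14609, 14829 and 14910.0 on VN (log2 -1.33, SE 0.04, edgeR adjusted p = 4.44e-08). CCN2 was among the more abundant of these messages, falling from a mean of 858 to 363 TPM. CRIM1, a transmembrane protein that binds growth factors, fell by 1.35 on the log2 scale. TAGLN, an actin-binding protein of smooth muscle, had 13807 and 14443 on Matrigel against 3346, 3102 and 3312 on VN (log2 -2.12, SE 0.092, edgeR adjusted p = 3.16e-07). Other smooth muscle and stress fibre genes followed at graded sizes: CNN1 (calponin) fell by 1.84, MYL9 (a myosin light chain) by 1.41, TPM1 (tropomyosin) by 1.12, ACTN1 (alpha-actinin) by 0.89, MYH9 (a nonmuscle myosin heavy chain) by 0.84 and VCL (vinculin) by 0.63 on the log2 scale. Not every component was called. PTK2, the focal adhesion kinase, had 7804 and 7751 on Matrigel against 8107, 7516 and 7152 on VN with overlapping groups and a log2 difference of -0.035 (SE 0.048). The nonmuscle myosin MYH10 differed by -0.13 (SE 0.057), and TEAD1, a DNA-binding partner of YAP, by -0.059 (SE 0.041), neither called.

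**Figure D2:**
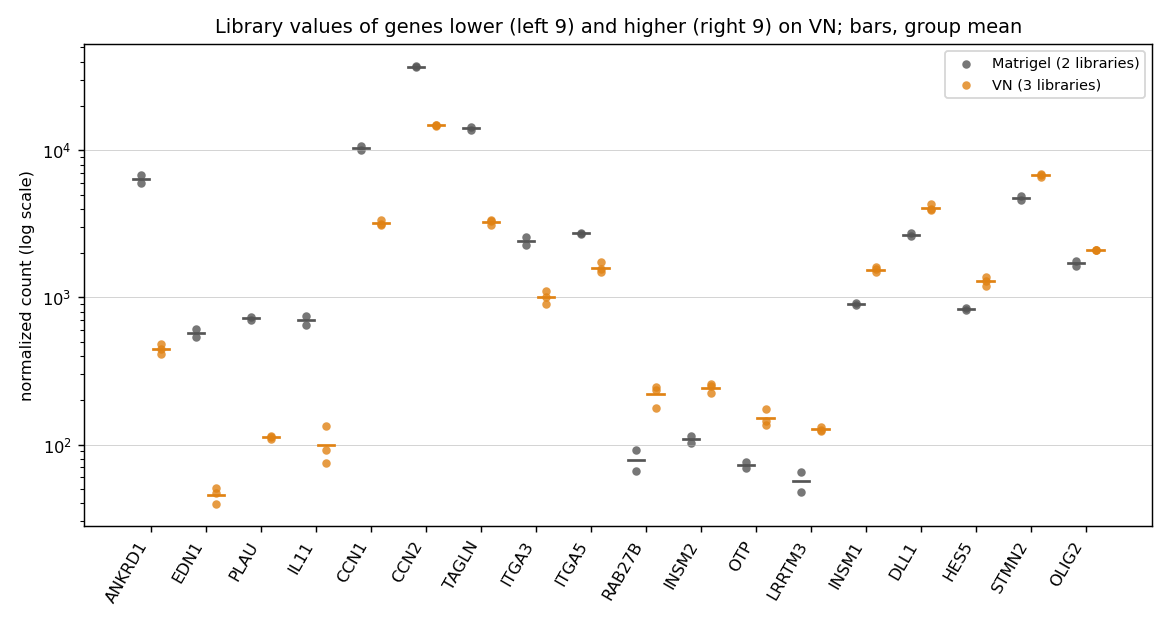
Normalized counts (log-scaled y axis) of 18 genes in each of the 2 Matrigel libraries (grey) and 3 VN libraries (orange), with bars at the group means. The 9 genes on the left were lower and the 9 on the right higher in all 3 VN libraries than in both Matrigel libraries.

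The upstream windows of CCN2, ANKRD1, IL11 and HES5, a Notch target described with its pathway further on, are shown because they hold the letters that TEAD, AP-1 or RBPJ bind. Sequences are the 250 bases before the annotated start, from RefSeq on GRCh38.p14, on the gene's strand, and capitals mark the motif: GGAATG (TEAD) in CCN2 at chr6:131951373-131951622 and ANKRD1 at chr10:90921088-90921337, TGANTCA (AP-1, the FOS and JUN dimer) in IL11 at chr19:55370464-55370713, and GTGGGAA or its reverse complement (RBPJ, the DNA-binding factor of Notch signalling) in HES5 at chr1:2530264-2530513, all on the minus strand.
CCN2: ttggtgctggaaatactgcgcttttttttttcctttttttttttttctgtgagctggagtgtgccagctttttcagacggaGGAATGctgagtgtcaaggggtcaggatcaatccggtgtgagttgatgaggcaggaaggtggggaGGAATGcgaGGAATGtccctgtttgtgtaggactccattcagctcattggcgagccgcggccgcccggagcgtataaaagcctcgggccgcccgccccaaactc
ANKRD1: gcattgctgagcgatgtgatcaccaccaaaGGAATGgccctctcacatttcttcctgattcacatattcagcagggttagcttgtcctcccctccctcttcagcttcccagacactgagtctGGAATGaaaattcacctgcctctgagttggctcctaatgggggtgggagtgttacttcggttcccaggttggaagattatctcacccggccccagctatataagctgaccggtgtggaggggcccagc
IL11: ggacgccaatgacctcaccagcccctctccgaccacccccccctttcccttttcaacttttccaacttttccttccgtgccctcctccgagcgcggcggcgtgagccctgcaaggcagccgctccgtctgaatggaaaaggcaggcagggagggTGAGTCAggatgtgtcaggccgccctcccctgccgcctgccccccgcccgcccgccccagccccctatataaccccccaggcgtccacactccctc
HES5: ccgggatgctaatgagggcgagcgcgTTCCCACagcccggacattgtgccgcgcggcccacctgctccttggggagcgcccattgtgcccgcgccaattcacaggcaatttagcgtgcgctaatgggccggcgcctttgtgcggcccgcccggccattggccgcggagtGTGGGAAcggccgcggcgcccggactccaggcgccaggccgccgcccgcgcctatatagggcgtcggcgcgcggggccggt
CCN2 held 3 copies of GGAATG, the nearest starting 95 bases before the start, and ANKRD1 held 2, the nearest at 128 bases. IL11 held a single TGANTCA at 96 bases, and HES5 held GTGGGAA at 81 bases and its reverse complement at 224. ANKRD1 also held 1 TGANTCA and HES5 also held 1 CArG box, both left in lower case. Searched on both strands, GGAATG was present in 11.6% of the 2157 windows of genes called lower and 8.90% of the 1225 windows of genes called higher, against 10% of the 18490 windows of genes tested and 11.9% of all 35116 windows. At a change of at least 2-fold it was in 16.2% of 228 windows of lower and 10.5% of 57 windows of higher genes. Of the 19 windows of YAP and SRF induced genes, found for 15 of 22 genes, 7 held it. Of the 55 windows of focal adhesion and actomyosin genes, 12 did. TGANTCA was in 7.14% of windows of genes called lower, 4.65% of those called higher, 4.54% of those tested and 6.57% of all windows, and at 2-fold in 15.4% of windows of lower and 10.5% of windows of higher genes. GTGGGAA was in 5.05%, 4.82%, 5.14% and 5.43% of the first 4 sets, and at 2-fold in 4.82% of lower and 7.02% of higher. The CArG box, the site of SRF, was in 2.18%, 1.47%, 1.10% and 1.16%, and at 2-fold in 1.75% of both. In the 19 windows of YAP and SRF induced genes, 3 held the CArG box, 2 TGANTCA and 1 GTGGGAA. In the 55 windows of focal adhesion and actomyosin genes these numbers were 4, 4 and 1. Windows were found for 164 of the 230 genes called at least 2-fold lower, and their median GC content was 63.2% against 64.0% for the windows of genes tested. A match is a description of the letters, not of a site in use. The motifs do not overlap each other in the windows printed.

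Immediate early genes and genes of TGF-beta signalling were lower as well. Of 23 immediate early genes, 15 were called lower and 0 higher (median -0.40), and of 18 TGF-beta induced genes, 12 were lower and 0 higher (median -0.41). Without VN replicate 1 the counts were 15 and 11, and without Matrigel replicate 3 they were 10 and 9. The AP-1 subunits differed among themselves. FOSB had 161 and 173 on Matrigel against 16.3, 18.4 and 25.8 on VN, FOSL1 329 and 368 on Matrigel against 69.8, 87.3 and 85.2 on VN, and FOSL2 1139 and 1185 on Matrigel against 203, 307 and 305 on VN. These amount to log2 fold changes of -3.06 (SE 0.21), -2.11 (SE 0.17) and -2.11 (SE 0.17), and FOS itself fell by 1.52 on the log2 scale. JUND, the AP-1 subunit with the highest count in the list, had 3947 and 3859.6 on Matrigel against 3991, 3477 and 3735 on VN, a difference of -0.064 (SE 0.078) that was not called, and KLF6 differed by -0.11 (SE 0.048). ATF3, a stress-induced factor of the same superfamily, fell by 0.95. TGFB2, a ligand of the pathway, had 2092 and 2369 on Matrigel against 778, 850.5 and 912 on VN (log2 -1.40, SE 0.075, edgeR adjusted p = 1.35e-06). LTBP1, which holds latent TGF-beta in the matrix, fell by 0.32, and the induced matrix protein TGFBI by 0.39. The repressors SKI and SKIL, which are induced by the pathway, differed by -0.037 (SE 0.035) and -0.031 (SE 0.057) and were not called. CDKN2B, a cell cycle inhibitor of the list, fell by 0.91 but lost its call without Matrigel replicate 2 (edgeR adjusted p = 0.0529) or 3 (edgeR adjusted p = 0.0629).

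Several integrin subunits were lower on VN, among them subunits of the vitronectin receptors. Of the 8 tested subunits that bind RGD ligands, 4 were called lower and 0 higher, a count that was the same in each of the 14 alternatives. ITGAV, the alpha v subunit, had 11016 and 10665 on Matrigel against 8037, 9018 and 9014 on VN (log2 -0.32, SE 0.051, edgeR adjusted p = 0.00236). ITGB5, a beta partner of ITGAV in vitronectin receptors, had 3552 and 3848 on Matrigel against 2946, 2649 and 2637 on VN (log2 -0.43, SE 0.061, edgeR adjusted p = 0.00107). ITGB3, the other classical partner, was scarce, at 1.47 and 1.269 TPM, and its normalized counts of 117 and 146 on Matrigel against 114, 129.8 and 78.5 on VN overlapped. ITGA5, which with ITGB1 forms the main fibronectin receptor (chr12:54395261-54419460), fell the most of this group, from 2710.0 and 2760.4 on Matrigel to 1483, 1728 and 1556 on VN (log2 -0.78, SE 0.064, edgeR adjusted p = 2.26e-05). ITGB1, the common beta subunit, was the most abundant integrin at 446 and 372 TPM and fell by 0.34 on the log2 scale. ITGAV came next at 96.5 and 82.0 TPM, ahead of ITGB5 at 48.4 and 38.01 and of the laminin receptor subunit ITGA6 at 42.2 and 48.2. ITGB8 and ITGA8, which also bind RGD ligands, differed by 0.065 (SE 0.074) and 0.31 (SE 0.24), not called.

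Among 8 subunits that bind laminins or collagens, 3 were lower and 0 higher. ITGA3, a laminin receptor subunit (chr17:50055968-50090481), had 2253 and 2574 on Matrigel against 1105, 898 and 1001 on VN (log2 -1.269, SE 0.086, edgeR adjusted p = 6.73e-06). ITGA6 and ITGA2, which bind laminin and collagen, had 4474 and 4105 on Matrigel against 4399.6, 4905 and 4582 on VN and 1517 and 1543 on Matrigel against 1597, 1655 and 1622 on VN, with differences of 0.11 (SE 0.054) and 0.087 (SE 0.049) that were not called, so subunits for the same ligand did not move alike. ITGA1, a collagen receptor subunit, fell by 0.82, with the limit that its counts here were 0.166 of those in the authors' table, and it lost its call without Matrigel replicate 2 (edgeR adjusted p = 0.0898). ITGA7 fell by 0.26 and lost its call without Matrigel replicate 2 (edgeR adjusted p = 0.0762) or 3 (edgeR adjusted p = 0.176) with VN and Matrigel libraries only (edgeR adjusted p = 0.0552) and without VN replicate 2 (edgeR adjusted p = 0.0555) or 3 (edgeR adjusted p = 0.0547). The number lower in this list was 1 without Matrigel replicate 2. The cells made hardly any vitronectin of their own: VTN stood at 0.852 and 0.834 TPM, with a log2 difference of -0.12 (SE 0.26).

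Genes of the matrix itself were called in both directions, though the 2 basement membrane genes called higher lost their calls without length offsets. Of 22 basement membrane genes, 5 were lower and 2 higher, with a median of -0.081. The laminin chains LAMB1 and LAMC1 fell by 0.69 and 0.48 on the log2 scale. Without these offsets, a correction for differences in mean transcript length between libraries, the list had 10 lower and 0 higher members. Perlecan (HSPG2) fell by 0.57 and nidogen (NID1) by 0.43. The paired collagen genes COL4A5 and COL4A6 instead rose by 0.34 and 0.21, which was lost without length offsets (edgeR adjusted p = 0.0572 and 0.0689), and COL4A5 was also lost without Matrigel replicate 2 (edgeR adjusted p = 0.0768) or 3 (edgeR adjusted p = 0.0748). Of 24 fibrillar collagens and their modifiers, 12 were lower and 1 was higher. The chains of collagen I parted: COL1A1 had 23524 and 25974 on Matrigel against 18758, 16179 and 16212 on VN, a fall of 0.54, whereas COL1A2 had 4893 and 4782 on Matrigel against 6253, 6032 and 5936 on VN, a rise of 0.33 (edgeR adjusted p = 0.000392 and 0.000226). COL5A3, a collagen V chain, fell by 1.80, and LOXL2, a crosslinking enzyme, by 0.94. Of 23 adhesive and matricellular glycoproteins, 10 were lower and 2 higher. THBS1 (thrombospondin) had 13706 and 13696 on Matrigel against 7067, 6134 and 6457 on VN, a fall of 1.06, TNC (tenascin C) fell by 0.65, MATN2 (a matrilin) by 1.42 and SPARC by 0.43. Fibronectin went the other way. FN1 had 33073 and 32089 on Matrigel against 44386, 41339.5 and 41262 on VN (log2 0.38, SE 0.037, edgeR adjusted p = 9.06e-05).

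Proteoglycan genes also moved in both directions, and the called genes of the protease list were lower but for 1. Of 20 proteoglycan genes, 6 were higher and 5 lower. The heparan sulfate carriers GPC4 and SDC4 fell by 0.91 and 0.81. The chondroitin and keratan sulfate carriers NCAN, DCN and LUM rose by 0.53, 0.53 and 0.58, and PTPRZ1, a receptor phosphatase of OPCs and radial glia, rose by 0.39 with counts at 0.787 of the authors' table. Of 21 protease and inhibitor genes, 9 were lower and 1 was higher. Beside PLAU, the tissue plasminogen activator PLAT fell by 0.57, MMP2 by 0.35, and the inhibitors TIMP3 and TIMP1 by 0.64 and 0.41. The counts of lower members in the protease list came to 6 and 6 without Matrigel replicate 2 or 3 and to 6 without VN replicate 2. The gene called higher in the protease list lost its call without either Matrigel library. The lower members of the proteoglycan list came to 3 without either Matrigel library and to 3 without VN replicate 3.

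**Figure D3:**
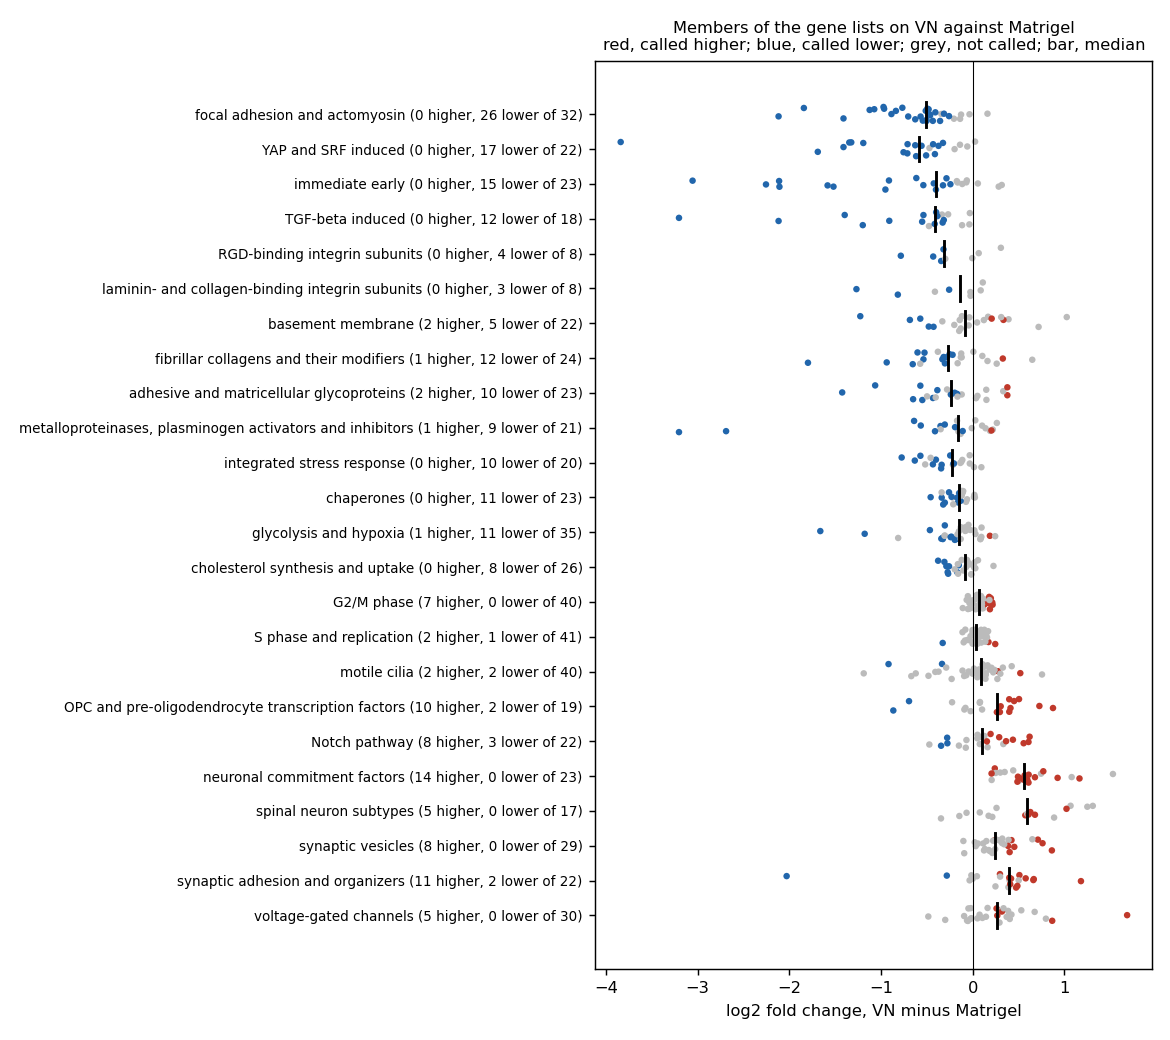
Log2 fold changes of VN minus Matrigel (x axis) for the tested members of the gene lists (y axis, with counts), where red and blue mark members called higher and lower, grey marks members not called and the bar is the list median. Medians lie at -0.59 for YAP and SRF induced genes and at 0.56 for neuronal commitment factors.

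Genes of neurons and of neurogenesis were among those that rose. Of 23 tested factors that commit progenitors to a neuronal fate, 14 were higher and 0 lower, with a median of 0.56. The number higher was 13 without VN replicate 1 and 9 without Matrigel replicate 2. INSM1 and INSM2 are zinc finger factors of newborn neurons. INSM1 had 892 and 918 on Matrigel against 1479, 1553 and 1599 on VN (log2 0.77, SE 0.058, edgeR adjusted p = 1.41e-05). INSM2 (chr14:35534042-35537054) had 115 and 102 on Matrigel against 223, 249.97 and 258 on VN (log2 1.16, SE 0.12, edgeR adjusted p = 0.000106). INSM2 was chosen among the largest rises, for which lack of overlap between the groups was a condition. ELAVL4, a neuronal RNA-binding protein, rose by 0.60, with counts at 0.854 of the authors' table, and the homeobox factor ONECUT2 rose by 0.61. Some members did not pass the test: ELAVL3 differed by 0.21 (SE 0.097) and EBF2 by 0.25 (SE 0.13). Of 17 factors and enzymes of spinal neuron subtypes, 5 were higher and 0 lower. ISL1, a motor neuron factor, had 292 and 276 on Matrigel against 475, 462 and 426 on VN, a rise of 0.68 (SE 0.082). LHX1, SIM1, TLX3 and POU4F1 rose by 0.57, 0.61, 0.63 and 1.02, and without Matrigel replicate 3 none of these 4 kept its call (edgeR adjusted p = 0.0797, 0.088, 0.17 and 0.134), nor did LHX1 without Matrigel replicate 2 (edgeR adjusted p = 0.0664). POU4F1 also lost its call without VN replicate 3 (edgeR adjusted p = 0.0524).

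Several factors of the OPC state rose modestly, whereas MYRF and ZNF488, of the later oligodendrocyte, fell. Of 19 tested transcription factors of OPCs and their precursors, 10 were higher and 2 lower (median 0.26), and 6 were higher without Matrigel replicate 3. ST18 had 365 and 312 on Matrigel against 628, 590.1 and 640.4 on VN, a rise of 0.88 (SE 0.091), and SOX9, SOX4 and SOX5 rose by 0.45, 0.40 and 0.40. OLIG2 had 1766 and 1643 on Matrigel against 2106, 2111 and 2099.7 on VN (log2 0.31, SE 0.053, edgeR adjusted p = 0.00363) and OLIG1 had 1509.7 and 1538 on Matrigel against 1984, 1789.9 and 1839 on VN (log2 0.30, SE 0.058, edgeR adjusted p = 0.00744). The differences were small for both genes. Neither kept its call without Matrigel replicate 3 (log2 0.25 for OLIG2 and 0.31 for OLIG1), nor did OLIG1 without Matrigel replicate 2 (log2 0.29). NKX2-2, with 616 and 581 on Matrigel against 621, 641 and 634 on VN, differed by 0.079 (SE 0.066) and was not called. MYRF, the factor that drives myelin genes, had 704 and 628 on Matrigel against 429, 317 and 353 on VN (log2 -0.87, SE 0.14, edgeR adjusted p = 0.00276), and ZNF488, a repressor in oligodendrocytes, fell by 0.69. Among 10 tested proteins of OPCs and myelin, CLDN11 fell by 0.64 and LHFPL3 rose by 0.88, a call that was lost with DESeq2 (adjusted p = 0.104), in edgeR with VN and Matrigel libraries only (edgeR adjusted p = 0.0845), without VN replicate 1 (edgeR adjusted p = 0.0702), without VN replicate 2 (edgeR adjusted p = 0.123), without Matrigel replicate 2 (edgeR adjusted p = 0.199) and without Matrigel replicate 3 (edgeR adjusted p = 0.151). The myelin protein CNP differed by -0.035 (SE 0.044).

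Notch pathway genes moved in both directions. In Notch signalling a ligand on a neighbouring cell, such as DLL1, activates receptors that release a fragment to the nucleus, where it induces HES and HEY repressors. Of 22 genes, 8 were higher and 3 lower, and 4 were higher without Matrigel replicate 3. DLL1 (chr6:170282206-170306565) had 2743 and 2594 on Matrigel against 4289, 3898 and 4018 on VN (log2 0.61, SE 0.05, edgeR adjusted p = 2.39e-05), and DLL3 had 1854 and 1786 on Matrigel against 2961, 2540.1 and 2521 on VN, a rise of 0.56 (SE 0.07). The ligand JAG1 instead fell by 0.35. HES5, whose upstream window is printed above, had 820.1 and 851 on Matrigel against 1368, 1199 and 1286 on VN (log2 0.62, SE 0.083, edgeR adjusted p = 0.000678), and HEY1 rose by 0.44. HES5 is also counted among the progenitor markers below. The receptors NOTCH2 and NOTCH3 fell by 0.28 and 0.28, the latter without a call once length offsets (edgeR adjusted p = 0.0831) or Matrigel replicate 3 were left out (edgeR adjusted p = 0.101). Progenitor markers were likewise mixed, with 4 higher and 5 lower of 15, and 1 higher without Matrigel replicate 3. The intermediate filaments VIM (vimentin) and NES (nestin) fell by 0.46 and 0.28, and PTN (pleiotrophin) by 0.68, while SOX1 rose by 0.28 and lost its call without Matrigel replicate 3 (edgeR adjusted p = 0.0785).

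Some genes of neuronal form and of the synapse rose. Of 24 cytoskeletal genes of neurons, 9 were higher and 2 lower. DCX (doublecortin) had 8405 and 8685 on Matrigel against 11912, 12511 and 12374 on VN (log2 0.52, SE 0.044, edgeR adjusted p = 2.99e-05) and STMN2 had 4609 and 4925 on Matrigel against 6772, 6864 and 6627 on VN, a rise of 0.50 (SE 0.043), but GAP43, of growth cones, fell by 0.33. Other neuron markers did not share a direction. SYN1 rose by 0.86, while the abundant TUBB3 (548 TPM on Matrigel and 551 on VN), ELAVL3 and the scarce RBFOX3 differed by -0.073, 0.21 and -0.48, not called. Of 29 synaptic vesicle and transmitter genes, 8 were higher and 0 lower, among them the priming factor UNC13A (0.71), the GABA-synthesizing enzyme GAD2 (0.76), the scaffold BSN (0.45) and the calcium sensors SYT4 (0.42) and SYT1 (0.24). The call of GAD2 was lost without Matrigel replicate 2 (edgeR adjusted p = 0.0794). Of 22 synaptic adhesion genes, 11 were higher and 2 lower (1 without Matrigel replicate 2 or VN replicate 2). LRRTM3, a postsynaptic organizer, had 65.0 and 47.3 on Matrigel against 133, 124 and 126 on VN (log2 1.18, SE 0.16, edgeR adjusted p = 0.000874), and SLITRK1 rose by 0.67. SHISA9, an auxiliary subunit of AMPA receptors, went strongly the other way, with 242 and 313 on Matrigel against 62.5, 65.6 and 75.3 on VN (log2 -2.03, SE 0.16, edgeR adjusted p = 1.98e-05). These counts rested on both Matrigel libraries: without Matrigel replicate 2 and 3 in turn, 6 and 5 cytoskeletal, 4 and 5 vesicle and 4 and 3 adhesion genes were higher.

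Few channels were called, all of them higher, whereas receptors and guidance molecules were called in both directions. Over all genes tested, 5.66% were higher and 9.60% lower. Of 30 voltage-gated channel genes, 5 were higher and 0 lower, and 0 were higher without Matrigel replicate 2 and 8 without VN replicate 1. Without length offsets 9 channels were higher. SCN3A, a sodium channel of immature neurons, had 305 and 352 on Matrigel against 593, 569.5 and 641 on VN, a rise of 0.87 (SE 0.16), which lost its call without Matrigel replicate 2 (edgeR adjusted p = 0.061). Of 31 transmitter receptor subunits, 4 were higher and 4 lower. The glutamate receptor subunits GRIA1 and GRIN2A fell by 0.59 and 0.58, while the GABA receptor subunit GABRA3 rose by 0.37. The 4 higher and 4 lower receptor subunits came to 1 and 2 without Matrigel replicate 2, to 1 and 3 without Matrigel replicate 3, and to 1 and 2 without VN replicate 3. Of 33 guidance genes, 10 were higher and 7 lower, with 5 higher without Matrigel replicate 3. The netrin receptor DCC had 623 and 738 on Matrigel against 1193, 1146 and 1136 on VN (log2 0.77, SE 0.084, edgeR adjusted p = 0.000179), and its ligand NTN1 fell by 0.30. NRP2, a semaphorin receptor, had 8731 and 8561 on Matrigel against 3919, 3902 and 3852 on VN (log2 -1.15, SE 0.047, edgeR adjusted p = 2.04e-07), and the semaphorins SEMA3E and SEMA3C fell by 1.24 and 0.60, the former without a call once Matrigel replicate 2 was left out (edgeR adjusted p = 0.125). The receptor EPHA7 rose by 0.68.

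Positional genes shifted slightly, where 5.66% of all genes tested were higher and 9.60% lower. Of 22 HOX genes, which mark position along the hindbrain and spinal cord, 5 were higher and 0 lower, and 2 were higher without Matrigel replicate 3. HOXB3 and HOXB5 rose by 0.41 and 0.42. The same libraries held NKX2-1, of the ventral forebrain, at 321 and 397 TPM, and it differed by 0.22 (SE 0.042), a call lost without Matrigel replicate 3 (edgeR adjusted p = 0.0753). The interneuron factors DLX1 and DLX2 had 849.5 and 913 on Matrigel against 1354, 1454 and 1481 on VN and 483 and 439 on Matrigel against 764, 872 and 765 on VN, rises of 0.70 (SE 0.061) and 0.80 (SE 0.08). The morphogen SHH and its effector GLI2 fell by 0.50 and 0.78, while its receptor PTCH1 and the signal transducer SMO differed by -0.088 (SE 0.074) and -0.054 (SE 0.051), not called. Of 23 BMP pathway genes, 9 were lower, including the ligands BMP2 (-1.15) and BMP7 (-0.43) and the antagonists FST (-0.64) and CHRD (-0.68). Another 4 were higher, among them DLX2, already named above. The lower members of the BMP list numbered 5 without Matrigel replicate 3. In the WNT list, 6 of 27 were lower and 2 higher, and 3 were lower without either Matrigel library and 1 was higher without VN replicate 1, VN replicate 3 or Matrigel replicate 2. The secreted WNT antagonist SFRP4 had 136 and 141 on Matrigel against 11.9, 12.6 and 18.6 on VN (log2 -3.26, SE 0.23, edgeR adjusted p = 8.94e-06), whereas the antagonist FRZB rose by 0.41. In the retinoic acid list, 6 of 21 were higher and 3 lower, and 2 were higher and 1 lower without either Matrigel library. ALDH1A1, a retinoic acid synthesizing enzyme, had 38.9 and 30.5 on Matrigel against 99.7, 96.0 and 81.0 on VN, a rise of 1.42 (SE 0.23).

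The 15 largest rises among genes with a mean of at least 100 counts were smaller than the falls. RAB27B, a GTPase of vesicle secretion (chr18:54717860-54895516), had 91.2 and 65.9 on Matrigel against 236, 178 and 245 on VN (log2 1.495, SE 0.23, edgeR adjusted p = 0.00159). OTP, a homeobox factor of hypothalamic and spinal neurons, had 76.0 and 68.8 on Matrigel against 144, 136 and 175 on VN (log2 1.06, SE 0.16, edgeR adjusted p = 0.00131). FAP, a membrane protease of activated fibroblasts, had 57.5 and 64.1 on Matrigel against 130.2, 114 and 152 on VN (log2 1.12, SE 0.20, edgeR adjusted p = 0.00395). PTGER3, a prostaglandin receptor, rose by 1.003 and the antisense transcript HOXA-AS3 by 1.06. These 5 and INSM2 stayed called under every alternative. Without Matrigel replicate 2 the calcium-binding protein NECAB1 (1.14, edgeR adjusted p = 0.0513) and CSMD1 (1.09, edgeR adjusted p = 0.0695) lost their calls. NXPH1, a neurexin ligand (1.02), the sarcoglycan SGCD (1.02), SERPINI1, the neuroserpin (0.94), MAGED4 (0.90), which has a near-identical copy and is uncertain for that reason, IQSEC3 (1.10) and the antisense transcript SMARCA5-AS1 (1.68) lost their calls without either Matrigel library, with edgeR adjusted p values of 0.0938, 0.0762, 0.0889, 0.0583, 0.165 and 0.068 without replicate 2 and 0.075, 0.0509, 0.0704, 0.0818, 0.104 and 0.174 without replicate 3. SYCP2L (0.97) lost its call without Matrigel replicate 3 (edgeR adjusted p = 0.15). IQSEC3 also lost its call without length offsets, where its log2 fold change was 0.40 (edgeR adjusted p = 0.0629), and without VN replicate 2 (edgeR adjusted p = 0.0602), SMARCA5-AS1 without VN replicate 2 (edgeR adjusted p = 0.0663) or 3 (edgeR adjusted p = 0.0661), and SYCP2L without VN replicate 3 (edgeR adjusted p = 0.0558).

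Cell cycle genes changed little, where 5.66% of all genes tested were higher and 9.60% lower. Of 40 genes of G2 and mitosis, 7 were higher and 0 lower (median 0.072), and without Matrigel replicate 3 the number higher was 0, without Matrigel replicate 2 or VN replicate 2 it was 3, and without length offsets it was 4. MKI67, a marker of dividing cells, had 25494 and 23565 on Matrigel against 27364, 29104 and 28831 on VN. TOP2A, a topoisomerase of dividing cells, had 31768 and 31244 on Matrigel against 35193, 36253 and 35472 on VN. The differences of 0.21 (SE 0.048) and 0.18 (SE 0.032) lost their calls without Matrigel replicate 3 (edgeR adjusted p = 0.153 and 0.0568). Of 41 S phase genes, 2 were higher and 1 lower, with 0 higher without Matrigel replicate 3 and 0 lower without Matrigel replicate 2, VN replicate 2 or VN replicate 3. The inhibitor and p53 target CDKN1A, by contrast, had 5718 and 5676 on Matrigel against 3159.7, 3112 and 3135 on VN (log2 -0.86, SE 0.041, edgeR adjusted p = 6.01e-07). In its list of cyclins D, inhibitors and p53 targets, 10 of 25 were lower and 2 higher, with CCND1 falling by 0.40, PHLDA3 by 0.87 and the stress cytokine GDF15 by 1.37, and CDKN1C rising by 0.27. The lower members numbered 5 and 4 without Matrigel replicate 2 and 3, and the higher members 1 without any single library other than VN replicate 1. FGF feedback genes did not share a direction, with 5 lower and 2 higher of 19. The abundant ERK phosphatases DUSP4 and DUSP6 differed by -0.075 (SE 0.039) and -0.014 (SE 0.04), not called, while PHLDA1 had 1276 and 1489.5 on Matrigel against 433, 447 and 405 on VN (log2 -1.69, SE 0.082, edgeR adjusted p = 6.01e-07). The lower members of the FGF list numbered 2 without Matrigel replicate 2, 3 without Matrigel replicate 3 and 2 without VN replicate 2, and the higher members 1 without Matrigel replicate 3.

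Some stress and metabolic genes were lower, most of them by small amounts. Of 20 genes of the integrated stress response, 10 were lower and 0 higher. SLC7A5, an amino acid transporter, had 3815 and 3863 on Matrigel against 2360.4, 2158 and 2211 on VN (log2 -0.78, SE 0.051, edgeR adjusted p = 5.09e-06), and ATF4, the central factor of the response, fell by 0.20. Of 23 chaperones, 11 were lower and 0 higher, for instance HSPB1 (-0.46), CALR (-0.26) and HSPA5 (-0.23). Of 35 genes of glycolysis and hypoxia, 11 were lower and 1 was higher, which was not called without Matrigel replicate 3. The phosphofructokinase PFKP had 1358 and 1417 on Matrigel against 696, 517 and 626 on VN (log2 -1.18, SE 0.11, edgeR adjusted p = 5.37e-05), the peptide ADM fell by 1.66, the glucose transporter SLC2A3 by 0.47 and ENO1 by 0.33. Of 26 cholesterol genes, 8 were lower and 0 higher, with the synthesis enzymes SC5D at -0.27 and MVD at -0.38, and SREBF2, the factor that drives the pathway, at 0.017 (SE 0.039) without a call. MVD lost its call without Matrigel replicate 3 (edgeR adjusted p = 0.0922) and SC5D without length offsets (edgeR adjusted p = 0.116). In these 4 lists in that order, the lower members numbered 6, 5, 6 and 5 without Matrigel replicate 2, and 6, 6, 9 and 4 without Matrigel replicate 3. The stress response list also came to 6 without VN replicate 2 and to 6 without VN replicate 3. Mitochondrially encoded genes, with 1 lower and 0 higher of 13, summed to 1311300 and 1396720 on Matrigel and 1307260 to 1365400 on VN, with overlap. The lower gene, MT-ND4L (-0.17), kept its call without VN replicate 1 but in none of the other settings that left out a library (edgeR adjusted p = 0.113 and 0.113 without VN replicate 2 and 3, and 0.21 and 0.14 without Matrigel replicate 2 and 3).

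**Figure D4:**
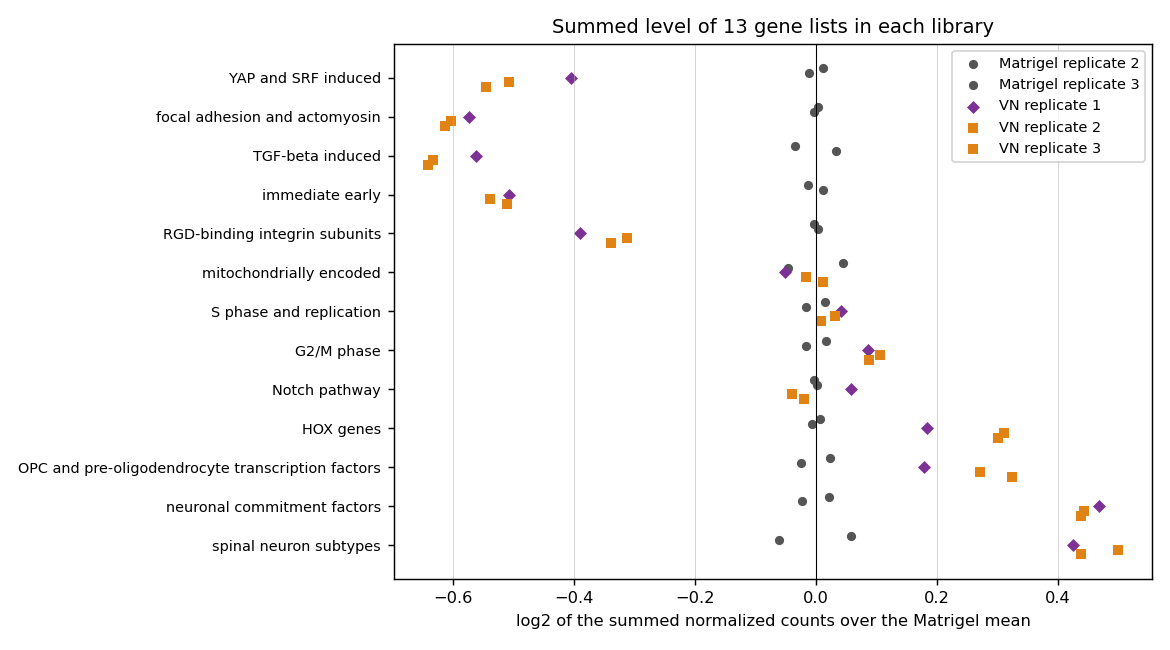
Log2 of the summed normalized counts of each list over the Matrigel mean (x axis) in 5 libraries: Matrigel (circles), VN replicate 1 (purple diamonds), VN replicates 2 and 3 (orange squares). VN replicate 1 lies on the same side of the Matrigel libraries as the other VN libraries for YAP and SRF induced genes and neuronal commitment factors, while the groups overlap for mitochondrial genes.

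Genes of cilia were for the most part not called, as were all genes tested, of which 5.66% were higher and 9.60% lower. Of 40 tested genes of motile cilia, 2 were higher and 2 lower (median 0.094), and of 38 genes of primary cilia, 2 and 1. Without Matrigel replicate 2 these counts were 1 and 0 for motile and 0 and 0 for primary cilia, without Matrigel replicate 3 they were 2 and 0 and again 0 and 0. RFX3, a factor of ciliogenesis, rose by 0.28, and FOXJ1, the master factor of motile cilia, differed by 0.094 (SE 0.043), not called. The axonemal dyneins did not move together. DNAH1 had 317 and 374 on Matrigel against 506, 522 and 460.4 on VN, a rise of 0.52 (SE 0.12) that was lost without length offsets (edgeR adjusted p = 0.329) and without Matrigel replicate 2 (edgeR adjusted p = 0.139). DNAH5 fell by 0.92, lost without Matrigel replicate 2 (edgeR adjusted p = 0.0561) or 3 (edgeR adjusted p = 0.0997). DNAH6, DNAH7, DNAH9 and DNALI1 differed by 0.33 (SE 0.16), 0.30 (SE 0.14), 0.071 (SE 0.064) and 0.11 (SE 0.11), and none was called, with DNALI1 at 0.299 of its counts in the authors' table. The tubulin TUBB4A had 1655 and 1616 on Matrigel against 1989.5, 1739 and 1620.0 on VN, overlapping groups and a difference of 0.12 (SE 0.078).

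Markers of other cell types were examined beside these results, where 5.66% of all genes tested were higher and 9.60% lower. Of 18 tested genes of mesenchymal cells, 4 were higher and 2 lower, and their summed normalized counts were 25471 and 26345 on Matrigel and 29923 to 30511 on VN. LUM and DCN, given above among the proteoglycans, and COL6A3 (0.53) and MEOX1 (0.77) rose, while PRRX1 (-0.40) and TCF21 (-0.61) fell. Both falls lost their calls without Matrigel replicate 2 (edgeR adjusted p = 0.11 and 0.0846) or 3 (edgeR adjusted p = 0.0772 and 0.263), and TCF21 also with DESeq2 (adjusted p = 0.0532) and without VN replicate 2 (edgeR adjusted p = 0.0667) or 3 (edgeR adjusted p = 0.129). Of 10 epithelial genes, 3 were lower and 0 higher, with sums of 7088 and 7482 on Matrigel and 3903 to 4121 on VN. That fall lay in the keratins KRT8 (-0.84) and KRT18 (-1.14) and the scarce CLDN4 (-1.97), whereas EPCAM and CDH1, which define epithelia, stood at 5.41 and 0.452 TPM on Matrigel and 5.53 and 0.521 on VN. In the astrocyte list, 1 of 8 was lower, the connexin GJA1 (-0.82), and GFAP and AQP4 were too low to test, with 28 and 19 counts over the 5 libraries. Of 9 endothelial genes, 2 were lower, TEK (-0.996) and the scarce CDH5 (-1.93), the latter lost without Matrigel replicate 2 (edgeR adjusted p = 0.0717), and PECAM1 had 15 counts over the 5 libraries. In the neural crest list, ETS1 fell by 1.38, DCT and KIT rose by 0.29 and 0.31, with KIT lost without Matrigel replicate 3 (edgeR adjusted p = 0.073), and 12 genes were tested. Among 12 pluripotency genes, 2 were higher (0 without Matrigel replicate 3, 1 without VN replicate 2, VN replicate 3 or Matrigel replicate 2) and 1 lower, and LIN28A, an RNA-binding protein also found in early neural progenitors, had 4502 and 4262 on Matrigel against 3096, 2969.8 and 2849 on VN (log2 -0.56, SE 0.049, edgeR adjusted p = 3.58e-05). The blood cell markers PTPRC and AIF1 had 22 and 3 counts over the 5 libraries. What part such cells had in the results was not tested.

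By kind of gene, protein-coding genes made up most calls, with 909 higher and 1699 lower of 14793. Long intergenic noncoding genes had a median log2 difference of 0.16 and antisense genes of 0.14, against -0.015 for protein-coding genes, but few of either were called, 28 higher and 16 lower of 944 and 21 higher and 10 lower of 989. Of 11 long noncoding RNAs listed as nuclear-retained, a list drawn up as a check of RNA quality, 3 were higher and 1 lower (6 and 1 without VN replicate 1, and 1 higher without VN replicate 3 or with VN and Matrigel libraries only). Whether the list reads RNA quality in these cells was not tested. The listed RNAs summed to 77243 and 79914 on Matrigel and 84361 to 93219 on VN, with every VN library above both Matrigel libraries, and the part of this shift in the other results was not tested. A large part of the difference between the sums came from a single member, MIAT. MIAT had 12707 and 14056 on Matrigel against 18852, 18316 and 20572 on VN, a rise of 0.52 (SE 0.066), and GAS5 fell by 0.32, lost without Matrigel replicate 3 (edgeR adjusted p = 0.0655). The share called higher grew with transcript length, from 1.62% in the fifth of shortest genes to 11.2% in the fifth of longest, while the share called lower went from 8.16 to 10.9%. With GC content the shares ran from 7.58% higher and 6.07% lower in the fifth of lowest content to 4.01% and 11.5% in the highest. With a smooth trend on both removed from each library, an alternative added after the data were seen, 1080 genes were higher and 1959 lower. No chromosome stood far from the rest, with medians between -0.031 and 0.047.

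Without VN replicate 1, most list counts were close to those given. The numbers higher and lower were then 0 and 3 for integrins of laminin and collagen, 2 and 5 for basement membrane, 2 and 13 for fibrillar collagens, 2 and 10 for matricellular glycoproteins, 6 and 6 for proteoglycans and 2 and 10 for proteases. They were 10 and 2 for OPC factors, 5 and 5 for progenitor markers, 6 and 0 for HOX, 8 and 3 for Notch, 5 and 8 for BMP, 1 and 6 for WNT and 6 and 3 for retinoic acid genes. Among neuronal lists they were 5 and 0 for spinal neuron subtypes, 10 and 3 for the cytoskeleton, 11 and 0 for vesicles, 11 and 2 for synaptic adhesion, 4 and 4 for receptors and 12 and 7 for guidance. They were 9 and 1 for G2 and mitosis, 3 and 2 for S phase, 3 and 10 for cyclins and p53 targets, 2 and 4 for FGF feedback, 3 and 2 for motile and 2 and 2 for primary cilia. The stress and metabolic lists gave 0 and 12 for the integrated stress response, 0 and 14 for chaperones, 2 and 16 for glycolysis and hypoxia, 0 and 11 for cholesterol and 2 and 1 for mitochondrially encoded genes. Markers of other cells gave 5 and 3 for mesenchymal, 0 and 3 for epithelial, 0 and 2 for endothelial, 3 and 2 for neural crest, 0 and 1 for astrocyte and 2 and 1 for pluripotency genes.

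VN was also set directly against VNP2. In this contrast 928 of the 18201 genes were called (5.10%), and since both comparisons use the VN libraries, only values of single genes are given. For several of the large changes no difference between VN and VNP2 was called. ANKRD1 had 429, 339.7 and 304 on VNP2, a log2 fold change from Matrigel of -4.17 (SE 0.11) where VN had -3.84 (SE 0.11) (log2 0.33, SE 0.12, edgeR adjusted p = 0.16 for VN minus VNP2). NPPB had 39.6, 27.5 and 22.6 on VNP2 (log2 -0.042, SE 0.22, edgeR adjusted p = 0.946) and CAVIN1 279, 235 and 213 (log2 0.16, SE 0.10, edgeR adjusted p = 0.409), not called. INSM2 had 268, 286 and 279 on VNP2 (log2 -0.19, SE 0.095, edgeR adjusted p = 0.311), OTP 138, 144 and 152 (log2 0.063, SE 0.13, edgeR adjusted p = 0.84) and HOXA-AS3 151, 175 and 148 (log2 0.0021, SE 0.14, edgeR adjusted p = 0.996), so for these a difference was not detected, which does not show that the substrates acted alike.

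Of genes called on VN against Matrigel with at least 100 counts, 10 were chosen for the largest differences from VNP2, so their differences are a description. RAB27B had 64.3, 59.7 and 89.1 on VNP2, where it stayed at the Matrigel level, against 236, 178 and 245 on VN. FAP likewise had 74.3, 55.0 and 55.6 on VNP2 and 130.2, 114 and 152 on VN. ESRG, a transcript of pluripotent cells, had 127 and 112 on Matrigel and 148, 210.1 and 215 on VN, while the VNP2 libraries had 46.3, 50.1 and 49.7, so it was highest on VN and lowest on VNP2, but its call against Matrigel was lost with VN and Matrigel libraries only (edgeR adjusted p = 0.0518), without either Matrigel library (edgeR adjusted p = 0.0919 without replicate 2 and 0.172 without replicate 3), without VN replicate 2 (edgeR adjusted p = 0.0824) and without VN replicate 3 (edgeR adjusted p = 0.0877). MYO5B, a myosin of vesicle transport, had 364 and 318 on Matrigel and 557, 471 and 514 on VN, while the VNP2 libraries had 216, 242 and 206, and lost its call against Matrigel without Matrigel replicate 3 (edgeR adjusted p = 0.064). UBD was low on VN and lower still on VNP2, at 23.7, 17.0 and 16.8. In the other direction, SHISA6, an auxiliary protein of AMPA receptors, had 267 and 267 on Matrigel and 350.4, 342 and 366 on VN, while the VNP2 libraries had 944, 901 and 859.9. Its rise on VN lost its call without Matrigel replicate 2 (edgeR adjusted p = 0.0521) or 3 (edgeR adjusted p = 0.0553). CORIN, a membrane protease, had 235 and 252 on Matrigel and 119, 145 and 147 on VN, while the VNP2 libraries had 370.3, 324 and 423, so it was below Matrigel on VN and above it on VNP2. A2M, a protease inhibitor, had 146, 125 and 207 on VNP2 against 75.9, 55.1 and 53.5 on VN, and PHLDA2 had 156, 105 and 87.1 against 48.7, 38.4 and 62.1. PEDS1-UBE2V1 had 160.3, 220.5 and 220.3 against 76.0, 45.4 and 71.5, but it is a readthrough of a pair of genes whose reads it shares, so its counts are uncertain.

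**Figure D5:**
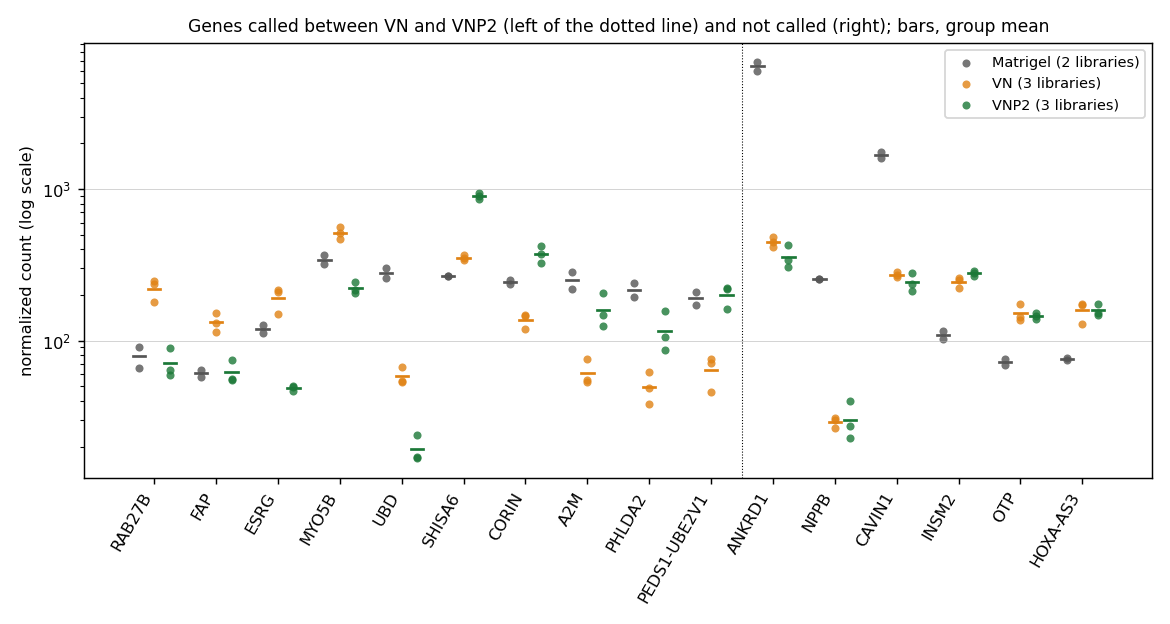
Normalized counts (log-scaled y axis) on Matrigel (grey, 2 libraries), VN (orange, 3) and VNP2 (green, 3), with bars at the group means. The 10 genes left of the dotted line were called between VN and VNP2 and were chosen for that difference, and the 6 on the right were not called.

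Several adhesion and matrix genes named above also differed between VN and VNP2. FN1 had 25677, 25511 and 25664 on VNP2, below the Matrigel libraries, whereas VN was above them (log2 0.72, SE 0.033, edgeR adjusted p = 3.53e-06 for VN minus VNP2). COL1A1 had 9634, 9038 and 9353 on VNP2 (log2 0.87, SE 0.06, edgeR adjusted p = 4.27e-05). The netrin gene NTN1, lower on VN than on Matrigel, had 26369, 26558 and 26548 on VNP2 (log2 -0.57, SE 0.034, edgeR adjusted p = 1.36e-05). CCN1 had 2448, 2412 and 2307 and CCN2 20112, 18817 and 18221 on VNP2, and the differences had opposite signs, with CCN1 higher on VN (log2 0.43, SE 0.045, edgeR adjusted p = 0.000457) and CCN2 lower (log2 -0.37, SE 0.037, edgeR adjusted p = 0.000342). Of the integrins, ITGB5 had 3651, 3454 and 3339 on VNP2 and was lower on VN (log2 -0.34, SE 0.055, edgeR adjusted p = 0.00537), while ITGAV (log2 -0.041, SE 0.046, edgeR adjusted p = 0.684), ITGA5 (log2 0.035, SE 0.059, edgeR adjusted p = 0.796) and ITGA3 (log2 0.044, SE 0.082, edgeR adjusted p = 0.821) showed no called difference. Among genes of cilia, FOXJ1 had 3948, 4062 and 4176 on VNP2 (log2 -0.55, SE 0.038, edgeR adjusted p = 4.27e-05), DNAH9 had 923, 869 and 897 (log2 -0.52, SE 0.056, edgeR adjusted p = 0.000476), and SPAG6, a protein of the ciliary axoneme, had 908, 959.6 and 973 against 584, 534 and 507 on VN (log2 -0.81, SE 0.066, edgeR adjusted p = 9.1e-05). All 3 were lower on VN than on VNP2.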

How the data were processed

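The comparison used 5 of 8 deposited libraries, and the model was fitted to all 8 so that the groups shared an estimate of the spread. The authors trimmed reads with Trim Galore and quantified GENCODE transcripts of GRCh38.p13 with Salmon, and the deposited estimated counts, effective lengths and TPM values are per transcript and library. The deposited series table holds signal per gene, counts that the authors normalized with DESeq2 1.27.12. It was used for a check and for an alternative with limma 3.58.1.

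Estimated counts were summed per gene through GENCODE release 29 (205225 of 226608 transcripts matched), rounded, given length offsets and TMM scaling, and filtered by expression (minimum count 10, minimum total 15). They were then tested with the quasi-likelihood test of edgeR 4.0.16 in R 4.3.3 with Benjamini-Hochberg adjustment over 18201 genes. TPM values were summed per gene. Log2 fold changes are VN minus Matrigel, and SE is the size of the fold change over the root of F.

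Named genes were the 15 largest changes per direction without overlap between groups, with a mean of at least 100 counts that lay within 5% of the authors' table, up to 6 called and 2 uncalled genes of each list, the integrins, VTN and a few lineage and cilia genes, and 10 genes that differed from VNP2. The comparison, the lists and this rule were chosen with earlier results of these data known. The fit was tested on simulated data for this comparison with 17984 genes. It called 56 of 67 genes changed by 1.5-fold, 63 of 67 changed by 2-fold and 66 of 66 changed by 4-fold, with 10 of the unchanged genes called. All changed genes had a mean of at least 100 counts, and counts were drawn with the fit's own dispersions. These figures therefore do not cover scarcer genes or the shift of VN replicate 1 with GC content. Strand settings of the counting are not given in the sources used here, so antisense genes are uncertain. A Matrigel library numbered 1 was not analysed here. Some genes that the rule names are not reported here.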

Additional observations from a re-analysis of the deposited data

Results flagged for a closer look

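Genes of the authors' normalized table that the annotation used here did not match numbered 513 and entered none of the comparisons above. In limma on log2 of the normalized counts, 7 of them were called higher and 4 lower on VN. Among them were the noncoding genes COPG2IT1 (0.39), RENO1 (0.32) and MIR1915HG (-0.32), given as log2 fold changes of VN minus Matrigel.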

How the results depend on the processing

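With 2 Matrigel libraries, the number of calls depended most on which library was left out. Over the 5 settings that left out 1 library, the number of genes called ran from 1188 to 3899, of genes called higher from 352 to 1554 and of genes called lower from 826 to 2345. Leaving out a Matrigel library leaves 1, which is then assumed to vary like the libraries of the other groups. The numbers called were 2874 with DESeq2, 2768 with RLE scaling, 3073 without length offsets, 3061 without the filter, 2883 where every library had to hold 50 counts of a gene, 2071 with VN and Matrigel libraries alone, 2837 with limma on the authors' normalized counts and 3039 with GC and length trends removed, the last chosen after seeing the data. Of the 291 named genes that were called, 182 were called under every alternative that tested them. Over all named genes called and all alternatives, 3742 of 4044 results kept their direction and their call, 301 kept the direction without a call, and 1 reversed, DYNC2H1, at -0.23 with and 0.062 without length offsets. With the replicate number as a block, 3389 genes were called (1267 higher and 2122 lower), and 7 of the 291 named genes lost their calls, among them LHFPL3 (edgeR adjusted p = 0.0848) and IQSEC3 (edgeR adjusted p = 0.0516). The numbers were not shown to pair the samples: deviations of same-numbered libraries from their group means correlated between -0.162 and 0.121. Depth was close to equal between libraries, so counting limits mainly the scarce genes.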
